A study of Mus musculus with 4 samples.

Results

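The SMAD family and the SKI co-repressors comprise 10 genes, Smad1, Smad2, Smad3, Smad4, Smad5, Smad6, Smad7, Smad9, Ski and Skil. They were found by symbol in GENCODE M21, matched to the table's identifiers without their version, and all 10 were present among the 54532 genes of the deposited table. All 10 passed the filter on low counts, which kept 17349 genes. The cells were gonadotropes, the pituitary cells that make follicle-stimulating hormone (FSH) and luteinizing hormone, sorted by flow cytometry from male mice of mixed strain aged 10 to 12 weeks. The series set 2 libraries labelled GATA2 cKO, from a conditional Gata2 knockout that its title calls gonadotrope-specific, against 2 libraries labelled control. The sources used here do not give the Cre driver, the allele, the genotype of the controls, the marker used to sort or the number of animals behind a library. Whether replicates stem from different animals is not stated, so the p-values measure only how far these libraries differ, and that difference may be technical.

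SMAD proteins carry signals of the TGF-beta superfamily from the cell surface to the nucleus. Activated type I receptors phosphorylate serines at the C-terminal end of the receptor SMADs, Smad2 and Smad3 for activin and TGF-beta, and Smad1, Smad5 and Smad9 for bone morphogenetic proteins (BMPs). The phosphorylated proteins join the common partner Smad4 and act on target genes. Smad6 and Smad7 block these steps and are themselves induced by the pathway, and Ski and Skil, which codes for SnoN, bind SMAD complexes and recruit histone deacetylases to them. In mouse gonadotropes activin acts through Smad3 and Smad4, together with Foxl2, on the promoter of Fshb, the gene of the FSH beta subunit.

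The receptor SMADs are told apart from the other family members by the end of their coding sequence, which is shown because it carries the serines that receptors phosphorylate. The last 30 bases of the longest coding sequence, from GENCODE M21 transcripts (GRCm38), are given 5′ to 3′ on the gene's strand, with the last 4 codons before the stop codon in capitals.
Smad3, chr9:63650262-63650291, minus strand: ccgagcatccgctgtTCCAGTGTGTCTtag
Smad1, chr8:79339649-79339678, minus strand: ccccacaatcctattTCATCCGTGTCTtaa
Smad5, chr13:56737449-56737478, plus strand: ccgctgaaccccattTCTTCTGTTTCAtag
Smad9, chr3:54797472-54797501, plus strand: ccacacaaccctatcTCTTCAGTGTCTtaa
Smad6, chr9:63953524-63953553, minus strand: ctggagatcctactcAACAACCACAGAtag
All 4 receptor SMADs shown had a serine codon (TCN, AGT or AGC) at codons 1, 2 and 4 of the last 4, and so did Smad2. The inhibitory Smad6 had 0 serine codons there. Of the other members not shown, Smad4 had 0 and Smad7 had 1. Over the 27 bases before the stop codon Smad1 and Smad9 shared 22 bases, Smad1 and Smad5 shared 18, and Smad1 and Smad3 shared 14. Gene-level counts do not show whether these serines were phosphorylated.

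Total estimated counts were 10646909 to 21135301 per library, and control replicate 1 had the lowest total and the fewest genes with a count (15220, against 17383 to 21628 in the others). Control replicate 2 resembled the cKO libraries (Pearson's r across genes 0.917 or higher, on log2 CPM) more than it did control replicate 1 (0.889). Levels are CPM, counts in each 1000000 of a library scaled by TMM, and levels of different genes are compared as CPM per kb of annotated exon. Gata2 had 221 and 214 CPM in cKO replicates 1 and 2, against 537 and 526 CPM in control replicates 1 and 2, a log2 difference of -1.29 (SE 0.14, edgeR adjusted p = 0.0473). Gonadotrope markers were present in every library. The summed level of 6 of 6 markers was 6861 to 8101 CPM in cKO and 13840 to 15280 CPM in controls. That sum is mostly the hormone subunit genes Cga, Lhb and Fshb. The transcription factor gene Nr5a1 had 275 and 372 CPM in cKO, against 277 and 397 CPM in controls, and Foxl2 had 201 and 167 CPM in cKO, against 217 and 234 CPM in controls. Gnrhr, the remaining marker, had 250.1 and 318.8 CPM in cKO, against 326.1 and 476.5 CPM in controls. Both cKO libraries lay below both controls for Foxl2 and Gnrhr, while Nr5a1 overlapped. In sorted cells measured in bulk, fewer cells of a type and less RNA per cell cannot be told apart. Markers of other pituitary cells were present too. Pomc, of corticotropes and melanotropes, had 6032 and 7145 CPM in cKO, against 7161 and 9813 CPM in controls. Prl, the prolactin gene of lactotropes, had 1249 and 1271 CPM in cKO, against 312 and 583 CPM in controls.

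No SMAD or SKI gene passed the test between cKO and control gonadotropes. At an adjusted p under 0.05 by edgeR's quasi-likelihood test, 0 of 10 members were called, against 0.0576% of all genes tested (10 of 17349). At an unadjusted p under 0.05 the count was 0 of 10 members, against 7.04% of all genes. DESeq2 and limma-voom called 0 members as well, against 5.44% and 1.48% of all genes. At an unadjusted p under 0.05 the counts were 3 of 10 members with DESeq2, against 15.6% of all genes, and 2 of 10 with limma-voom, against 8.67%. The median log2 fold change was 0.09 over the 10 members and 0.03 over all genes tested, and the median size was 0.38 over the members and 0.44 over all genes. The median SE was 0.27 for the members and 0.55 for all genes. Of the members, 6 had values above 0 and 4 below. The background, 0.0576%, is so low that a count of 0 among 10 genes says little about them, and the intervals given for each gene state what the libraries allow.

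**Figure D1:**
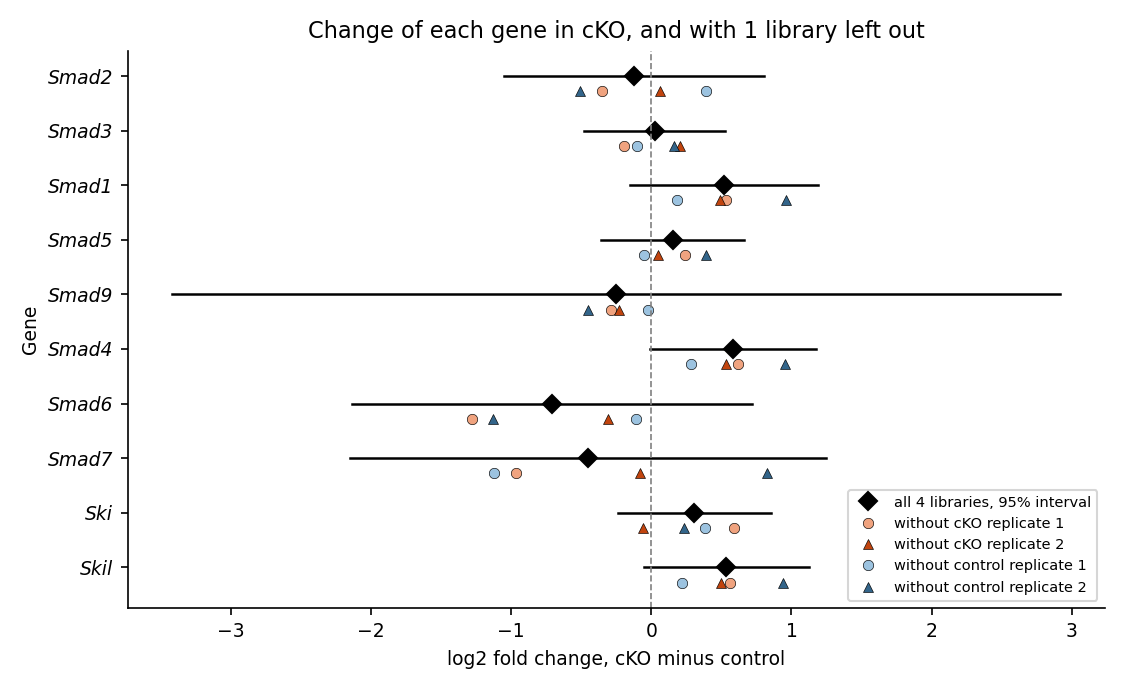
Log2 fold change (cKO minus control, horizontal axis) of the 10 genes: diamonds and lines are the edgeR value with its 95% interval from all 4 libraries, and small symbols are the values with 1 library left out. Every interval includes 0, and the interval of Smad4, from -0.01 to 1.17, comes nearest to leaving it out. The value of Smad7 is 0.82 without control replicate 2 and -1.12 without control replicate 1.

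The activin-branch transcripts were similar in the means of both groups, and Smad3 made up most of them. Smad3 had 151 and 113 CPM in cKO replicates 1 and 2, against 118 and 141 CPM in control replicates 1 and 2. The groups overlapped, with cKO replicate 1 the highest and cKO replicate 2 the lowest. Its log2 fold change was 0.03 (SE 0.21, 95% interval -0.48 to 0.53, edgeR adjusted p = 0.999), an interval of 0.719 to 1.44 times the control level. Smad2 had 37.4 and 27.9 CPM in cKO replicates 1 and 2, against 46.5 and 24.9 CPM in control replicates 1 and 2. Both cKO libraries lay between the controls, of which replicate 1 was the highest of all. The fitted log2 difference, cKO minus control, was -0.12 (SE 0.39, 95% interval -1.05 to 0.80, edgeR adjusted p = 0.999). Per kb, Smad3 exceeded Smad2 in every library, 6.38 and 6.44 times in cKO and 4.04 and 8.98 times in controls. Smad3 thus made up 86.4% and 86.5% of the branch in cKO, and 80.2% and 90.0% in controls. The direction of the small Smad3 value depends on the scaling, and is -0.0073 with library size only and -0.0030 with upper-quartile factors.

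The BMP-branch transcripts were mostly those of Smad1 and Smad5, with little Smad9. Smad1 had 94.8 and 97.1 CPM in cKO replicates 1 and 2, against 49.5 and 84.2 CPM in control replicates 1 and 2. Both cKO libraries lay above both controls, and control replicate 1 was far below the other 3 libraries. Its log2 fold change was 0.52 (SE 0.28, 95% interval -0.15 to 1.19, edgeR adjusted p = 0.799), and it was 0.18 without control replicate 1. Smad5 had 114 and 129 CPM in cKO replicates 1 and 2, against 92.8 and 125 CPM in control replicates 1 and 2. The groups overlapped, with control replicate 1 again the lowest. The fitted log2 difference, cKO minus control, was 0.15 (SE 0.22, 95% interval -0.36 to 0.66, edgeR adjusted p = 0.999). Smad9 had 3.54 and 3.37 CPM in cKO replicates 1 and 2, against 4.73 and 3.49 CPM in control replicates 1 and 2. These levels rest on 52 to 73 counts per library. The groups overlapped, and the 95% interval, -3.42 to 2.92 on the log2 scale, allows changes of several fold in either direction, although the 4 values lay within a factor of 1.40. Per kb, Smad5 exceeded Smad9 by 14.2 to 27.7 times over the 4 libraries. Smad1 stood at 0.987 and 0.892 of Smad5 in cKO and at 0.631 and 0.796 in controls, so Smad1 took a larger share of the branch in both cKO libraries (48.6% and 46.3%) than in the controls (37.1% and 43.4%). This share was not tested. For single genes, by CPM, 19.7% of all had both cKO libraries above both controls, and no such percentage was worked out for shares of a branch. The sizes of the ratio and the share depend on the length used. The annotated exons of Smad1 cover 6262 bases and its longest transcript has 3775, against 7420 and 6584 for Smad5. Whether Smad1 or Smad5 is the higher is therefore not settled. The deposited count of Smad1 in control replicate 1 and that of Smad2 in control replicate 2 were not whole numbers.

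The activin and BMP branches stood at similar total levels. Summed per kb, Smad2 and Smad3 had 31.4 and 23.7 in cKO, against 26.7 and 28.2 in controls. Smad1, Smad5 and Smad9 together had 31.1 and 33.5 in cKO, against 21.3 and 31.0 in controls. The ratio of the activin to the BMP branch was 1.01 and 0.706 in cKO (mean 0.858 ± 0.215 SD, n = 2) and 1.25 and 0.911 in controls (mean 1.08 ± 0.241 SD, n = 2). The groups overlapped, and the ratio lay on both sides of 1 in each. Which branch is the larger also depends on the length used. With the longest annotated transcript in place of all annotated exons the ratios were 0.795 and 0.561 in cKO, against 1.03 and 0.732 in controls. The difference comes mainly from Smad1, whose annotated exons cover 6262 bases and whose longest transcript has 3775. Transcript levels do not show how much of either branch was active.

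Smad4, the common partner of both branches, had 127 and 134 CPM in cKO replicates 1 and 2, against 67.7 and 107 CPM in control replicates 1 and 2. Both cKO libraries lay above both controls and close to each other, while the controls differed by a factor of 1.58. Its log2 fold change was 0.58 (SE 0.25, 95% interval -0.01 to 1.17, edgeR adjusted p = 0.705). It was 0.28 without control replicate 1 and 0.95 without control replicate 2. Within a library and per kb, Smad4 stood at 0.548 and 0.633 of the sum of the 5 receptor SMADs in cKO, against 0.380 and 0.486 in controls. The groups did not overlap in this ratio, which was not tested. Among all genes tested, by CPM of single genes, 19.7% had both cKO libraries above both controls. No such percentage was worked out for ratios.

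The inhibitory SMADs varied most between libraries among the members. Smad6, which mainly restrains BMP signals, had 15.3 and 7.76 CPM in cKO replicates 1 and 2, against 25.3 and 12.4 CPM in control replicates 1 and 2. The groups overlapped, with control replicate 1 the highest and cKO replicate 2 the lowest, 3.26 times apart. The fitted log2 difference, cKO minus control, was -0.71 (SE 0.61, 95% interval -2.13 to 0.72, edgeR adjusted p = 0.969). Smad7, which restrains both branches, had 16.7 and 8.99 CPM in cKO replicates 1 and 2, against 7.27 and 27.8 CPM in control replicates 1 and 2. Both cKO libraries lay between the controls, which differed by a factor of 3.82. Its log2 fold change was -0.45 (SE 0.72, 95% interval -2.15 to 1.25, edgeR adjusted p = 0.999). Its direction rests on which control is used: it was -1.12 without control replicate 1 and 0.82 without control replicate 2. The ratio of Smad7 to Smad6 was 0.774 and 0.822 in cKO, against 0.204 and 1.59 in controls, so the order of the pair was opposite in the 2 controls. Summed, Smad6 and Smad7 stood per kb at 0.135 and 0.0771 of the receptor SMADs in cKO, against 0.198 and 0.169 in controls. The cKO libraries were below the controls in this ratio, which was not tested. Among all genes tested, by CPM of single genes, 19.3% had both cKO libraries below both controls. No such percentage was worked out for ratios.

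Both inhibitory SMADs are also transcribed in blood vessels, and endothelial markers were low in these libraries. The summed level of 5 markers, of which 4 had a count, was 19.0 and 10.1 CPM in cKO, against 17.6 and 30.5 CPM in controls. Cdh5, which codes for VE-cadherin, had 12.2 and 5.40 CPM in cKO replicates 1 and 2, against 1.73 and 18.2 CPM in control replicates 1 and 2. Smad7 and Cdh5 had the same order over the 4 libraries, with control replicate 2 the highest and control replicate 1 the lowest. This match was seen after the values were known. Smad6, the summed markers and Pecam1 did not have that order. Smad6 was highest in control replicate 1 (25.3 CPM), where Cdh5 was lowest. Pecam1 had 3.73 and 3.82 CPM in cKO, against 15.8 and 4.68 CPM in controls, and Emcn had 0 counts in every library. The part of endothelial cells in the levels of Smad6 and Smad7 was not tested.

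The Smad6 promoter holds a palindrome known from in vitro work as a binding sequence of SMAD proteins. It is shown because Smad6 is a feedback gene of the pathway and its level varied widely here. The window from 150 bases before to 20 bases after the start site, chr9:64022040-64022209 on the minus strand (RefSeq, GRCm38.p6), is given 5′ to 3′ with the 8-base SMAD palindrome in capitals.
Smad6: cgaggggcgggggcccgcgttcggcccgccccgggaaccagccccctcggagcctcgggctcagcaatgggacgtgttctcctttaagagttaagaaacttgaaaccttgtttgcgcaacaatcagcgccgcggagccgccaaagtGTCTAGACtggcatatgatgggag
RefSeq promoters (250 bases before to 50 after a start site) were searched for 6 members, Smad1, Smad3, Smad5, Smad6, Smad9 and Ski. These gave 8 windows in all since Smad5 had 3. Smad2, Smad4 and Smad7 were left out of the search, and no Skil promoter was held. The palindrome GTCTAGAC, which reads the same on both strands, was in the Smad6 window, beginning 4 bases before the start site. It was in none of the other 7, but no window of Smad7, the other inhibitory SMAD, was among them. Of all 32851 promoter windows 0.213% held the palindrome. A GATA motif (A or T, then GATA, then A or G, on either strand) was in 1 of the 8 windows, one of those of Smad5, and in 29.8% of all promoters. The BMP-response core GGCGCC, which also reads the same on both strands, was in 4 windows, 1 of Smad9, 1 of Ski and 2 overlapping ones of Smad5, and in 11.9% of all promoters. The 2 Smad5 windows hold the same genomic site. No window held more than 1 match, and a match describes the letters only. Smad6 lies 195 kb from Smad3 on chromosome 9 (Smad3 at 63646767 to 63757994 and Smad6 at 63953076 to 64022059, mm10), and the pair had different levels and different orders over the libraries.

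Per kb, the co-repressor gene Ski had the highest mean level of the 10 members, and Skil stood in the middle of the order. Ski had 160 and 248 CPM in cKO replicates 1 and 2, against 174 and 156 CPM in control replicates 1 and 2. The groups overlapped, and cKO replicate 2 alone was high. The fitted log2 difference, cKO minus control, was 0.31 (SE 0.23, 95% interval -0.24 to 0.85, edgeR adjusted p = 0.936), and it was -0.06 without cKO replicate 2. Skil, which activin and TGF-beta signals are known to induce, had 173 and 180 CPM in cKO replicates 1 and 2, against 91.8 and 151 CPM in control replicates 1 and 2. Both cKO libraries lay above both controls, with control replicate 1 far below the rest. Its log2 fold change was 0.54 (SE 0.25, 95% interval -0.05 to 1.13, edgeR adjusted p = 0.731). Skil passed the test in 1 of the 4 fits with a library left out. Without control replicate 2 its log2 fold change was 0.94 (edgeR adjusted p = 0.0416), where 3.50% of all genes were called, and without control replicate 1 it was 0.22 (edgeR adjusted p = 0.9999). Per kb, Ski exceeded Skil by 1.61 and 2.41 times in cKO, against 3.31 and 1.80 times in controls. The size of this ratio depends on the length used, as the annotated exons of Skil cover 9694 bases and its longest transcript has 6717.

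Smad1, Smad4 and Skil thus shared an order in which control replicate 1 was lowest, control replicate 2 next and both cKO libraries highest. Among the members 3 of 10 had both cKO libraries above both controls and 0 of 10 had both below, against 19.7% and 19.3% of all genes tested. Both counts are near those shares at this number of genes. These genes were grouped after their values were seen. In the same libraries the summed level of the lactotrope markers was 1284 and 1297 CPM in cKO, against 322 and 590 CPM in controls, with 2 of 2 markers detected. The stem cell markers summed to 81.7 and 95.1 CPM in cKO, against 37.1 and 46.1 CPM in controls, with 3 of 3 detected and S100b at 0 in 3 libraries. Mitochondrially encoded transcripts held 7.58% and 8.74% of counts in cKO, against 5.36% and 6.04% in controls. The other marker sums did not have this order. Corticotrope markers summed to 6166 and 7278 CPM in cKO, against 7301 and 10020 CPM in controls. Somatotrope markers summed to 2149 and 385 CPM in cKO, against 1133 and 2379 CPM in controls. Control replicate 1, the lowest in the shared order, also had the lowest total count. The part of any of these differences in the levels of Smad1, Smad4 and Skil was not tested.

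**Figure D2:**
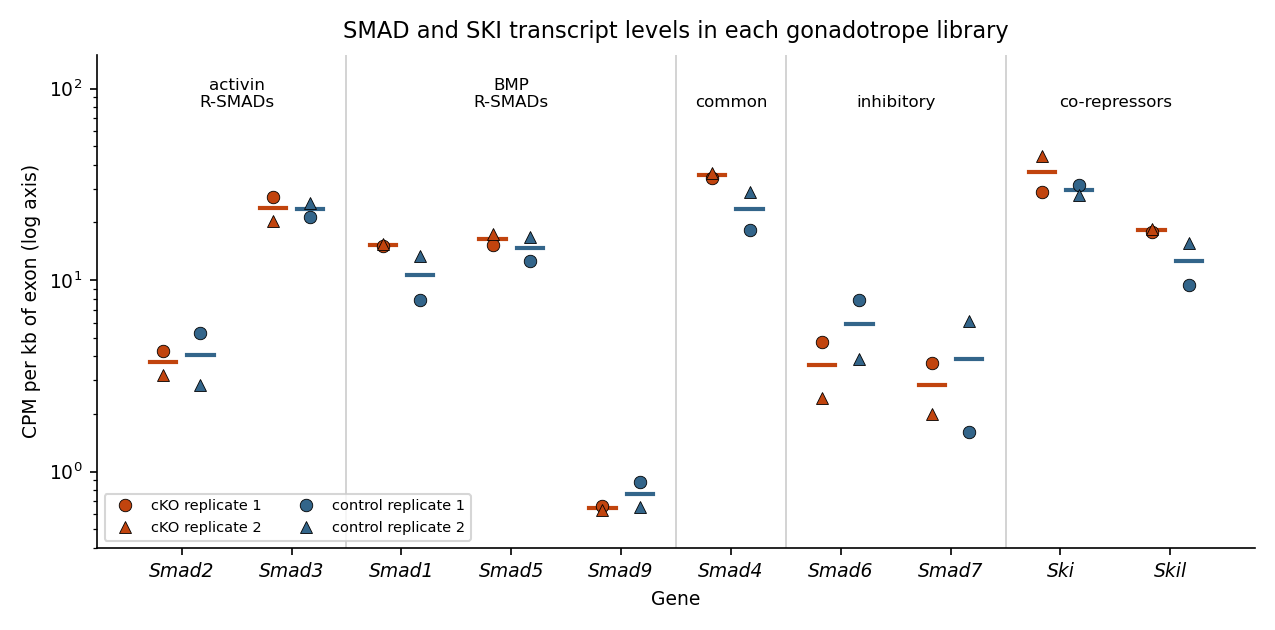
Level of each gene in each library, in CPM per kb of annotated exon on a log axis, with cKO left of control, circles for replicate 1, triangles for replicate 2 and a bar at the group mean (n = 2). Ski and Smad4 are highest and Smad9 lowest. The cKO libraries of Smad1, Smad4 and Skil lie close together above the controls.

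Per kb, most members could not be told from their neighbours in the order of levels. Averaged over the 4 libraries Ski had 33.1, Smad4 29.4, Smad3 23.6, Smad5 15.5, Skil 15.3 and Smad1 13.0 CPM per kb. Smad6 had 4.74, Smad2 3.89, Smad7 3.36 and Smad9 0.704 CPM per kb. Of the neighbours in this order, the ranges over the libraries were apart between Smad3 and Smad5, between Smad1 and Smad6, and between Smad7 and Smad9. The other pairs of neighbours overlapped, although Skil was above Smad1 in 4 of 4 libraries. The order of Smad5, Skil and Smad1, and the distance of Smad3 from Skil and Smad1, also depend on the length used. The longest transcripts of Smad1 and Skil are much shorter than their annotated exons. Among 14002 protein-coding genes tested, Ski ranked 1114, Smad4 1329 and Smad3 1769, while Smad2 ranked 8408 and Smad9 12486.

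**Figure D3:**
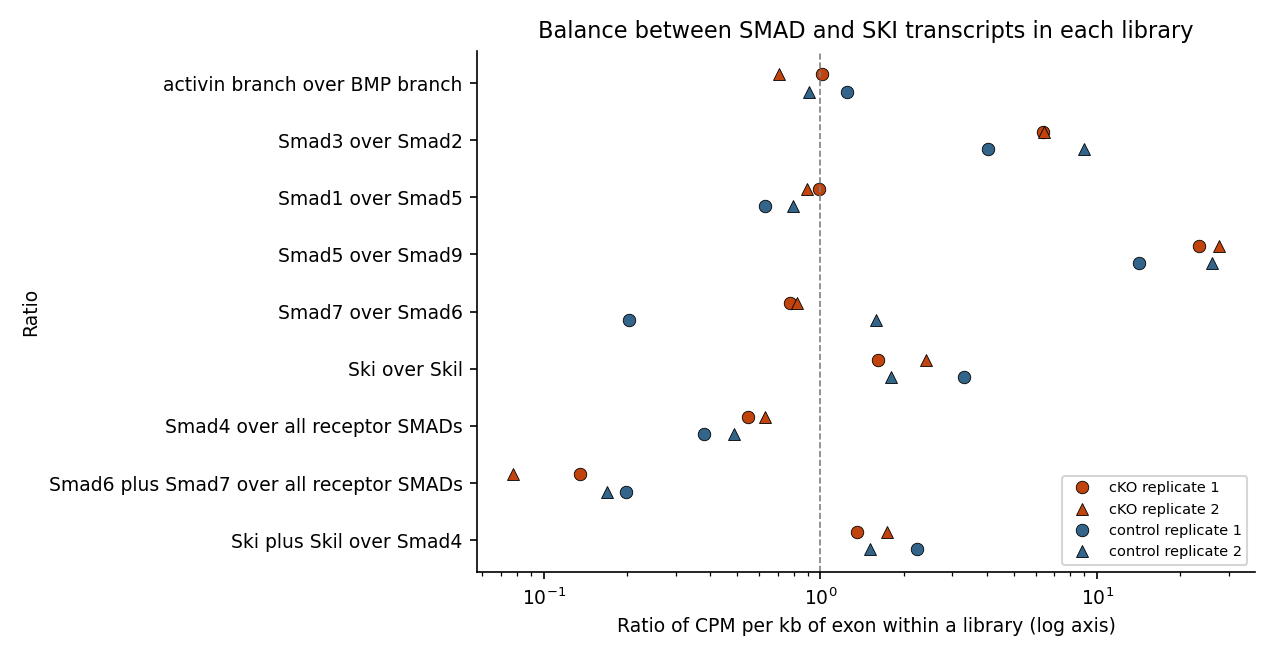
Ratios of CPM per kb within each library on a log axis, cKO above control in each row, circles for replicate 1 and triangles for replicate 2. The activin to BMP ratio lies between 0.706 and 1.25 on both sides of 1, and the ratio of Smad7 to Smad6 spreads from 0.204 to 1.59 between the controls. The groups are apart for Smad1 over Smad5, and for Smad4 and for Smad6 plus Smad7 over the receptor SMADs. They overlap in every other row. No ratio was tested. For single genes, by CPM, 19.7% had both cKO libraries above both controls and 19.3% had both below.

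Receptors that feed the SMADs did not pass the test, but only 0.0576% of all genes tested did. A count of 0 in these or the following lists therefore says little about their genes. Of 6 activin and TGF-beta type receptors 6 were tested, 0 passed in either direction and 6 had log2 fold changes above 0, with a median of 0.63 against 0.03 for all genes. Acvr2b, a type II receptor that BMPs can also use, had 20.6 and 24.3 CPM in cKO replicates 1 and 2, against 1.64 and 15.0 CPM in control replicates 1 and 2. Its log2 fold change was 1.42 (SE 0.91), with control replicate 1 far below the rest. Acvr1c (0.73, SE 0.69), Acvr2a (0.53, SE 0.54) and Acvr1b (0.21, SE 0.26), the first and last of them type I receptors, overlapped between the groups. Control replicate 1 was the lowest library for Acvr1c (4.82 CPM) and Acvr2a (12.4 CPM) too, but not for Acvr1b (87.8 CPM). Of 5 BMP type receptors 5 were tested and 0 passed, with a median of 0.07. Bmpr1a, a type I receptor, had 103 and 92.1 CPM in cKO replicates 1 and 2, against 70.2 and 115 CPM in control replicates 1 and 2, a log2 fold change of 0.07 (SE 0.27). Acvr1 had 0.33 (SE 0.34) and Bmpr1b -0.90 (SE 0.83), and Acvrl1, an endothelial receptor, had 124 and 0 counts in cKO, against 0 and 24 in controls.

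Proteins that turn SMADs over or move them showed no calls, against 0.0576% of all genes tested. Of 15 ubiquitin ligases and deubiquitinases 15 were tested and 0 passed, with 6 values above 0, 9 below and a median log2 fold change of -0.06. Stub1, which codes for the ligase CHIP, had 56.6 and 67.6 CPM in cKO replicates 1 and 2, against 94.8 and 93.3 CPM in control replicates 1 and 2, a log2 difference of -0.60 (SE 0.22, edgeR adjusted p = 0.654). Smurf1, a ligase for BMP-branch SMADs, had -0.35 (SE 0.27), the deubiquitinase gene Usp15 -0.33 (SE 0.23) and the ligase gene Wwp2 0.69 (SE 0.35). Of 14 phosphatases, anchors and transport factors 13 were tested and 0 passed, with a median of 0.09. The untested gene, Hgs, is annotated under 2 overlapping identifiers and was listed at 0 under both. Ctdspl, a small C-terminal domain phosphatase gene, had 11.1 and 12.2 CPM in cKO, against 23.7 and 29.3 CPM in controls, a log2 difference of -1.19 (SE 0.43, edgeR adjusted p = 0.654). Its relative Ctdsp2 had 165 and 157 CPM in cKO, against 57.8 and 121 CPM in controls, a log2 difference of 0.85 (SE 0.33, edgeR adjusted p = 0.683). Zfyve16, an endosomal anchor, had -0.74 (SE 0.32) and Xpo4, an exportin, -0.36 (SE 0.35).

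Nuclear partners of the SMAD and SKI proteins gave 0 calls among 19 tested of 21, against 0.0576% of all genes tested. Of their values 6 were above 0 and 13 below, with a median log2 fold change of -0.04. Tgif1, a homeodomain co-repressor of activin-branch SMADs, had 301 and 280 CPM in cKO replicates 1 and 2, against 175 and 186 CPM in control replicates 1 and 2. The groups were apart and the controls close together, with a log2 difference of 0.69 (SE 0.15, edgeR adjusted p = 0.394). Tgif1 had the smallest edgeR p of the list and was named for it. Of the 19 genes, 3 had both cKO libraries above both controls and 5 had both below. Among all genes tested the shares were 19.7% and 19.3%. Mecom, which codes for the SMAD-binding repressor EVI1, had -1.02 (SE 0.39). Ep300, a histone acetyltransferase that SMADs recruit, had -0.47 (SE 0.21), and Hipk2, a kinase that binds Ski, had 0.41 (SE 0.16). Foxh1 and Skor2 did not pass the low-count filter.

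Of the genes that SMADs are known to control, Fshb fell and the others did not pass. Fshb had 618 and 812 CPM in cKO replicates 1 and 2, against 3263 and 2496 CPM in control replicates 1 and 2, a log2 difference of -2.01 (SE 0.18, edgeR adjusted p = 0.0381). It was the 1 gene called among 7 tested of 9 activin and TGF-beta responsive genes, against 0.0576% of all genes tested. The median of the list was -0.50. The study's title names FSH deficiency, so the direction of Fshb is not independent evidence. Pmepa1, a feedback inhibitor induced by TGF-beta, had 79.5 and 74.5 CPM in cKO, against 57.8 and 38.8 CPM in controls, a log2 difference of 0.68 (SE 0.27, edgeR adjusted p = 0.693). Gnrhr had -0.50 (SE 0.22), and Cdkn2b had 0 and 0 counts in cKO, against 17 and 39 in controls. Of 9 BMP responsive genes 6 were tested and 0 passed, with 3 values above 0, 3 below and a median of 0.19. Id2, an inhibitor of DNA binding, had 114 and 94.3 CPM in cKO replicates 1 and 2, against 45.4 and 51.3 CPM in control replicates 1 and 2, a log2 difference of 1.10 (SE 0.23, edgeR adjusted p = 0.360). Id3 had 238 and 112 counts in cKO, against 0 and 70 in controls, and the BMP pseudoreceptor gene Bambi had -1.31 (SE 1.09). Hey1 had -0.30 (SE 0.65).

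**Figure D4:**
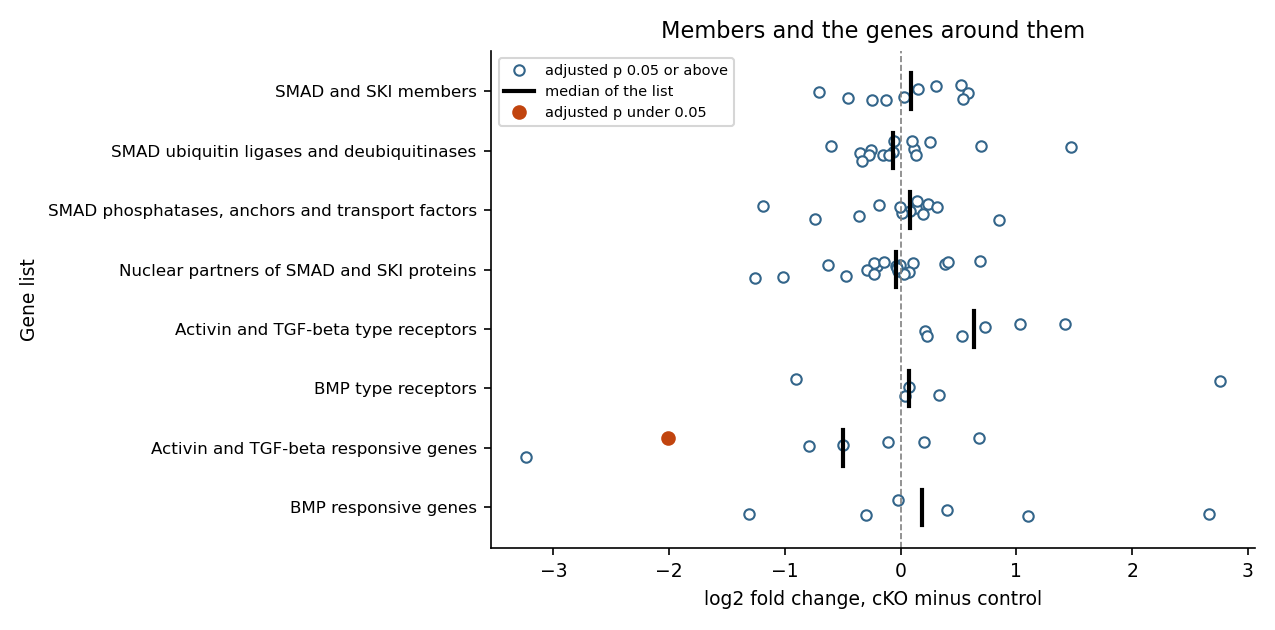
Log2 fold change (cKO minus control, horizontal axis) of the tested genes of each list, 1 point a gene, with a bar at the list's median. Fshb is the 1 filled point, at -2.01, and the members lie between -0.71 and 0.58. Cdkn2b, with 0 counts in cKO, is drawn at -3.24, the bound that a floor of 3 counts in each library gives.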

How the data were processed

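Poly(A) RNA of sorted gonadotropes was sequenced in 4 libraries, 2 labelled cKO and 2 control. The submitters' processing notes name STAR 2.5.1b, featureCounts 1.5.0-p1 and mm10. Annotation release, strand setting and handling of multiply matched reads: not given in the sources used here. Estimated counts for each gene, unscaled, were deposited by the authors, and 4.50% of the values were not whole. Without versions, 54495 identifiers matched GENCODE M21.

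After rounding, counts were filtered with filterByExpr (minimum count 10, minimum total 15), scaled with TMM and tested with edgeR 4.0.16 under R 4.3.3 (two-sided quasi-likelihood F-test on group alone, Benjamini-Hochberg adjustment over all 17349 genes, threshold 0.05). Each SE is the absolute log2 value over the root of its F statistic, and intervals use the test's degrees of freedom. DESeq2 1.42.0 and limma 3.58.1 were alternatives. On simulated counts with known changes, most calls by edgeR and limma-voom were true and most by DESeq2 were false. The counts were drawn with dispersions that edgeR estimated and with few genes changed. The simulation therefore cannot tell what share of the calls in the real libraries is false. With 2 libraries against 2, an exact permutation test cannot go below p = 0.333, so none was used, and ratios over members were not tested.

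The members and lists were chosen with earlier results of these data known. Named genes are all members, Gata2, up to 4 genes per pathway list with the smallest p and up to 2 per cell type list with the highest level. Exceptions are Nr5a1, Foxl2, Emcn, S100b, C1qa and C1qb as named markers and the genes that failed the filter. These, and Cdh5 and Pecam1 within the rule, were chosen after their values were seen. Markers of somatotropes, thyrotropes, melanotropes, macrophages, fibroblasts, erythroid cells and the posterior lobe were also summed.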

Additional observations from a re-analysis of the deposited data

How the results depend on the processing

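The count of 10 genes called became 3 with 1 CPM in 2 libraries, 253 without a filter, 943 with DESeq2, 256 with limma-voom, 47 with edgeR's newer quasi-likelihood form, 26 with the robust form and 66 to 681 when any 1 library was dropped. For these counts the cause was not tested. The count of members called was 0 in all of these except without control replicate 2, where it was 1 (Skil), a range of 0 to 1. Where only 1 library of a group is kept, it is taken to vary as much as the other group's pair. Smad1, Smad4, Skil, Smad6 and Smad9 kept their direction in all 15 alternatives. With 1 library left out the log2 fold changes ran from 0.18 to 0.96 for Smad1, 0.28 to 0.95 for Smad4, 0.22 to 0.94 for Skil, -1.28 to -0.11 for Smad6, -0.45 to -0.02 for Smad9, -0.51 to 0.39 for Smad2, -0.19 to 0.21 for Smad3, -0.053 to 0.39 for Smad5, -1.12 to 0.82 for Smad7 and -0.058 to 0.59 for Ski. With limma-voom Smad2 had 0.047 and Smad3 -0.023, and Smad3 had -0.0073 with library size only and -0.0030 with upper-quartile factors. The activin to BMP ratio ran from 0.706 to 1.01 in cKO and from 0.911 to 1.25 in controls with 1 library left out.

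Same-numbered samples did not deviate together (r = -0.011 across genes), so the numbers were not taken as pairs. With the replicate block the fit called 7 genes and 0 members. Smad9 had the fewest counts of the members (52 to 73 per library).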

Other observations

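Summed fibroblast and pericyte markers, 5 of 5 with a count, had 18.7 and 12.7 CPM in cKO, against 0.0909 and 14.9 CPM in controls. Macrophage markers had 0 CPM in both cKO libraries, against 3.64 and 1.24 CPM in controls, with C1qa and C1qb at 0 in every library. Somatotrope markers summed to 2149 and 385 CPM in cKO, against 1133 and 2379 CPM in controls, thyrotrope markers to 19.8 and 9.61 against 22.3 and 16.1 CPM, and melanotrope markers to 172 and 229 against 226 and 185 CPM. Erythroid markers had 15.2 and 0 CPM in cKO, against 36.9 and 8.12 CPM in controls, and posterior lobe markers 14.4 and 2.30 against 6.27 and 3.01 CPM.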
